A study of Homo sapiens with 12 samples.

Results

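The 200 microRNA genes described here are the brightest of 1020 microRNA genes with a named probe set on a whole-transcript Affymetrix array, chosen by their mean log2 intensity on the 3 arrays of vehicle-treated melanoma cells. Where a microRNA gene had more than 1 probe set, as 40 of the 1020 and 7 of the 200 did, the brighter one was used. The cells were Hs695T, an established human melanoma line, collected 24 h after treatment, with 3 arrays in each of 4 groups. The MAPKi group received 100 nM dabrafenib, which inhibits BRAF, with 10 nM trametinib, which inhibits MEK. The HDACi group received 1 µM entinostat, which blocks class I histone deacetylases, and the combination group received all 3 drugs at those doses. The DMSO group received vehicle alone. The design asks how each treatment altered RNA levels and whether entinostat altered the response to the MAPK pathway inhibitors. All values come from 1 cell line. Titles present the arrays of a group as biological replicates and the series text as technical triplicates, and each p-value therefore measures only the spread between these arrays.

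MicroRNAs are short RNAs that guide Argonaute proteins to messenger RNAs and lower their stability or translation. Each is cut from a longer transcript: DROSHA with its partner DGCR8 releases a hairpin in the nucleus, exportin 5 (XPO5) carries it to the cytoplasm, and DICER1 trims it to the mature strand. Many hairpins lie inside introns or exons of another gene, the host, and are transcribed with it. The seed, bases 2 to 8 of the mature strand, largely decides which messenger RNAs are bound. In melanoma, microRNAs have been tied to the MITF programme of pigment cells, to growth and to the response to BRAF inhibitors. A probe set assigned to a microRNA gene reports any RNA that carries its sequence, so primary transcript, unspliced host intron and hairpin cannot be told apart here, and no mature microRNA was measured as such.

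The mature sequences of the members on which the results below turn are shown because the seed groups them into families, and they are written 5′ to 3′ with the seed in capitals, from RefSeq (GRCh38.p14). A mature sequence was included for 180 of the 200 members, 263 sequences in all, with 244 distinct seeds, of which 15 were shared by 2 or more members. Sequences from a chromosome that was left out are not among them, so members there could not enter a shared seed. The first pair has the miR-21 seed and the second pair the seed of miR-25 and miR-92b.
hsa-miR-21-5p: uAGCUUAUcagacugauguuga
hsa-miR-590-5p: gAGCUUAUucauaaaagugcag
hsa-miR-25-3p: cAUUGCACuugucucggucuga
hsa-miR-92b-3p: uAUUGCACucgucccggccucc
The let-7 seed was carried by 5 members, 4 of the let-7 family and miR-4458.
hsa-let-7a-5p: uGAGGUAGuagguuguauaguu
hsa-let-7d-5p: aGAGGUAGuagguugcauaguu
hsa-let-7e-5p: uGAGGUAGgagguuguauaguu
hsa-miR-98-5p: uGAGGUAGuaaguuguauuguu
hsa-miR-4458: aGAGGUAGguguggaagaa
The pair miR-3125 and miR-3916 also share a seed, although their genes lie on different chromosomes.
hsa-miR-3125: uAGAGGAAgcuguggagaga
hsa-miR-3916: aAGAGGAAgaaauggcugguucucag
The following have seeds that no other member with an included sequence shares, and belong to genes whose responses are described in full below.
hsa-miR-146a-5p: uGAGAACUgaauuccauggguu
hsa-miR-622: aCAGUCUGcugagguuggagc
hsa-miR-4534: gGAUGGAGgaggggucu
hsa-miR-4525: gGGGGGAUgugcaugcugguu
hsa-miR-4653-5p: uCUCUGAGcaaggcuuaacacc
hsa-miR-604: aGGCUGCGgaauucaggac
hsa-miR-760: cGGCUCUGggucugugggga
hsa-miR-23b-3p: aUCACAUUgccagggauuaccac
hsa-miR-27b-3p: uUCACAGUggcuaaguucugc

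Array-wide signal differed between the groups before any gene was considered. Median intensity over all probe sets of an array was 37.5 to 40.8 in MAPKi, 48.3 to 51.6 in HDACi, 33.3 to 39.9 in the combination and 50.6 to 57.6 in DMSO. How the arrays were scaled to each other is not stated, so each difference below is given on the deposited scale and, where it bears on the call, again after quantile normalization, which gives every array the same distribution. Arrays of 1 group correlated across probe sets at r = 0.989 to 0.994, and 3 arrays per group limit the precision. Of 9 melanoma markers listed, 8 were measured. S100B, at a mean log2 of 11.49 in DMSO, and SOX10, at 9.96, were bright, while MITF read 6.09, PMEL 6.07, MLANA 4.27 and TYR 3.81, all below the 6.42 median of all named genes. The measured markers of keratinocytes (3 of 3 listed), fibroblasts (2 of 4), leukocytes (1 of 4) and endothelium (1 of 3) read between 2.71 and 5.36 in DMSO.

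The members spanned a mean log2 intensity of 6.08 to 11.21 in DMSO, with a median of 6.90, against 4.10 for all 1020 microRNA genes and 6.42 for all 14599 named genes. The DMSO arrays chose the members, so these levels are a description. Brightness of different probe sets does not order the amounts of their RNAs. The step at the boundary was small: MIR591 and MIR378H were the last 2 genes inside, at 6.09 and 6.08, and MIR924 and MIR4474 the first 2 outside, at 6.07 and 6.06. Ranking each DMSO array alone would have placed 176 of the 200 in all 3 sets, and ranking on the 9 drug-treated arrays alone would have kept 186. The median SD of a member over the 3 DMSO arrays was 0.213.

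**Figure D1:**
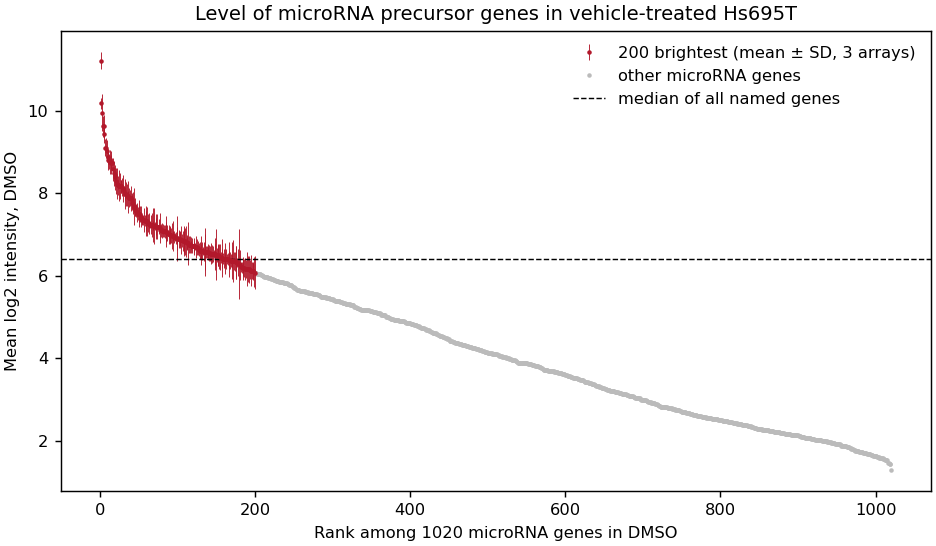
Mean log2 intensity over the 3 DMSO arrays (y axis) of 1020 microRNA genes in order of brightness (x axis, rank). The 200 members lie above a gradual boundary at 6.08, and most microRNA genes are dimmer than the median named gene, at 6.42.

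The 10 brightest members were MIR4737, MIR5047, MIR1299, MIR574, MIR4525, MIR4442, MIR663B, MIR3907, MIR1538 and MIR3160-1. MIR4737 read 10.81, 10.80 and 10.71 in MAPKi, 10.55, 10.86 and 10.84 in HDACi, 10.15, 10.39 and 10.33 in the combination, and 11.20, 11.02 and 11.42 in DMSO. All 9 drug-treated arrays lay below all 3 DMSO arrays, and the combination difference was -0.92 ± 0.12 (log2, SE, n = 3 arrays per group; limma adjusted p = 4e-06), against 0.00 after quantile normalization. MIR663B averaged 8.12 ± 0.29 in MAPKi, 8.48 ± 0.17 in HDACi, 7.93 ± 0.28 in the combination and 9.10 ± 0.20 in DMSO (SD, n = 3). MIR1538 averaged 7.81 ± 0.15 in MAPKi, 8.49 ± 0.17 in HDACi, 7.63 ± 0.26 in the combination and 9.03 ± 0.27 in DMSO. Both were highest in DMSO and lowest in the combination. MIR4525, the fifth brightest, departed from that order, at 8.78 ± 0.16 in MAPKi, 10.44 ± 0.16 in HDACi, 9.69 ± 0.26 in the combination and 9.62 ± 0.29 in DMSO. Several members have near-identical copies elsewhere, among them MIR3689A with MIR3689B, whose 5p strands are identical, and MIR3689D1 with MIR3689D2, whose listed mature sequences are identical, so their separate values are uncertain.

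With MAPKi, most bright microRNA genes read lower, led by MIR622, MIR4653, MIR146A, MIR3939 and MIR25, and only MIR4534, MIR3143 and MIR378D2 read higher. Of the 200 members, 163 were lower and 3 higher than in DMSO, and 34 did not pass (limma over all genes, adjusted p under 0.05). The background is high, since 66.2 percent of all 14599 genes were called lower and 2.97 percent higher, 69.1 percent in either direction. The median difference was -0.65 among the members and -0.48 over all genes. After quantile normalization 15 members were lower and 16 higher, beside 14.7 and 14.2 percent of all genes (28.9 percent in either direction), and the members' median was -0.03. MIR5047 was lower as deposited (-0.35, adjusted p = 0.041) and higher after quantile normalization (0.40, adjusted p = 0.031). All 15 members lower after quantile normalization were also lower on the deposited scale, and 115 of the 163 passed in every fit that left out 1 array. These counts share the DMSO arrays that chose the members and are a description. In bulk RNA, fewer cells of a type and less RNA per cell cannot be told apart.

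MIR622 had the largest fall with MAPKi among the members. It read 4.34, 5.12 and 4.36 in MAPKi, 7.08, 7.54 and 7.51 in HDACi, 5.72, 5.63 and 5.45 in the combination, and 7.03, 6.70 and 6.85 in DMSO. The MAPKi arrays did not overlap any other group, and MIR622 fell by 2.25 ± 0.18 against DMSO, or 4.76-fold (adjusted p = 4.3e-08), and by 1.69 after quantile normalization. The combination arrays lay between the MAPKi and DMSO arrays.

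MIR146A, whose microRNA restrains NF-κB signalling by targeting TRAF6 and IRAK1, followed the same order. It read 4.69, 5.15 and 4.74 in MAPKi, 6.77, 7.04 and 6.70 in HDACi, 4.86, 5.16 and 5.05 in the combination, and 6.42, 6.63 and 6.54 in DMSO. All 6 arrays with MAPK pathway inhibitors lay below all 6 without. The fall with MAPKi was -1.67 ± 0.14, or 3.18-fold (adjusted p = 4.4e-08), and -1.14 after quantile normalization. Its HDACi difference did not pass as deposited (0.31, adjusted p = 0.078) and did after quantile normalization (0.51, adjusted p = 0.011).

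MIR21 gives rise to one of the best-studied tumour-promoting microRNAs, whose gene is a known target of AP-1 and whose microRNA represses PDCD4. It read 6.94, 7.18 and 7.00 in MAPKi, 8.27, 8.44 and 8.43 in HDACi, 6.56, 6.58 and 6.23 in the combination, and 8.39, 7.96 and 8.12 in DMSO. The 3 MAPKi arrays and the 3 combination arrays were below every HDACi and DMSO array, and the HDACi arrays overlapped DMSO. MIR21 was 2.16-fold lower with MAPKi (log2 difference -1.11 ± 0.13, adjusted p = 1.9e-06), and still lower after quantile normalization (-0.33, adjusted p = 0.029). With HDACi it did not pass on the deposited scale (0.22, adjusted p = 0.17) and was higher after quantile normalization (0.60, adjusted p = 0.00043).

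MIR25 lies with MIR106B in an intron of the replication licensing gene MCM7, in a cluster related to the oncogenic miR-17-92 cluster. It read 5.94, 6.03 and 5.96 in MAPKi, 6.25, 6.43 and 6.37 in HDACi, 5.69, 5.63 and 5.51 in the combination, and 7.51, 7.27 and 7.33 in DMSO. The 4 groups did not overlap, with DMSO highest and the combination lowest. MIR25 fell with MAPKi by 1.39 ± 0.10 (2.63-fold, adjusted p = 1.2e-08), and by 0.71 after quantile normalization. MIR106B averaged 5.74 ± 0.16 in MAPKi, 5.93 ± 0.12 in HDACi, 5.38 ± 0.27 in the combination and 6.44 ± 0.14 in DMSO (SD, n = 3). Its MAPKi difference was -0.70 ± 0.14 (adjusted p = 0.0003) on the deposited scale and -0.17 after quantile normalization, where it did not pass (adjusted p = 0.31).

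MIR4653 stood low in every treated group. It read 6.56, 6.63 and 6.56 in MAPKi, 6.99, 6.79 and 6.74 in HDACi, 5.87, 6.05 and 5.67 in the combination, and 8.43, 8.31 and 8.55 in DMSO. The DMSO arrays were more than 1 log2 unit above all 9 others. It fell by a factor of 3.59 with MAPKi (-1.85 ± 0.12, adjusted p = 2.3e-09, and -1.07 after quantile normalization). MIR3939 (-1.40 ± 0.18), MIR760 (-1.38 ± 0.13), MIR3125 (-1.32 ± 0.15) and MIR891A (-1.27 ± 0.15) completed the 8 largest falls with non-overlapping arrays, at adjusted p-values of 2.3e-07 to 6.2e-06. Each was also lower after quantile normalization, at -0.74, -0.73, -0.59 and -0.60.

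MIR4534 and MIR3143 were the members that rose with MAPKi without overlap between the arrays. MIR4534 read 9.33, 9.08 and 9.31 in MAPKi, 6.46, 7.05 and 6.86 in HDACi, 7.11, 7.67 and 7.17 in the combination, and 8.32, 8.01 and 8.15 in DMSO. Its MAPKi arrays were the highest and its HDACi arrays the lowest, so the single treatments moved it in opposite directions: by 1.07 ± 0.16 with MAPKi (2.11-fold, adjusted p = 3e-05) and by -1.37 ± 0.16 with HDACi (2.59-fold lower, adjusted p = 4.5e-06). After quantile normalization these differences were 1.89 and -0.94. MIR4534 overlaps POLR2F, a subunit of the RNA polymerases, and its nearest other measured gene is SOX10, a transcription factor of the melanocyte lineage. POLR2F differed from DMSO by -0.17 ± 0.14 with MAPKi and by -0.66 ± 0.14 with HDACi, and SOX10 by -0.35 ± 0.12 and -1.09 ± 0.12. After quantile normalization POLR2F was at 0.35 and -0.47 and SOX10 at 0.40 and -0.75, so for both the direction with MAPKi depends on the scaling.

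MIR3143 read 9.45, 9.50 and 9.46 in MAPKi, 8.83, 8.98 and 9.12 in HDACi, 9.17, 10.27 and 9.70 in the combination, and 8.92, 8.74 and 8.55 in DMSO. The MAPKi arrays were nearly identical, and the combination arrays spread over more than 1 log2 unit, with replicate 2 highest. It rose by 0.73 ± 0.19 with MAPKi (1.66-fold, adjusted p = 0.0036), and by 1.55 after quantile normalization. MIR378D2, named for the small count of rises after its values were seen, had overlapping arrays and a difference of 0.36 ± 0.15 (adjusted p = 0.046). It did not pass without DMSO replicate 3 (0.22), MAPKi replicate 1 (0.21) or 2 (0.40), or HDACi replicate 2 or 3 (0.36).

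**Figure D2:**
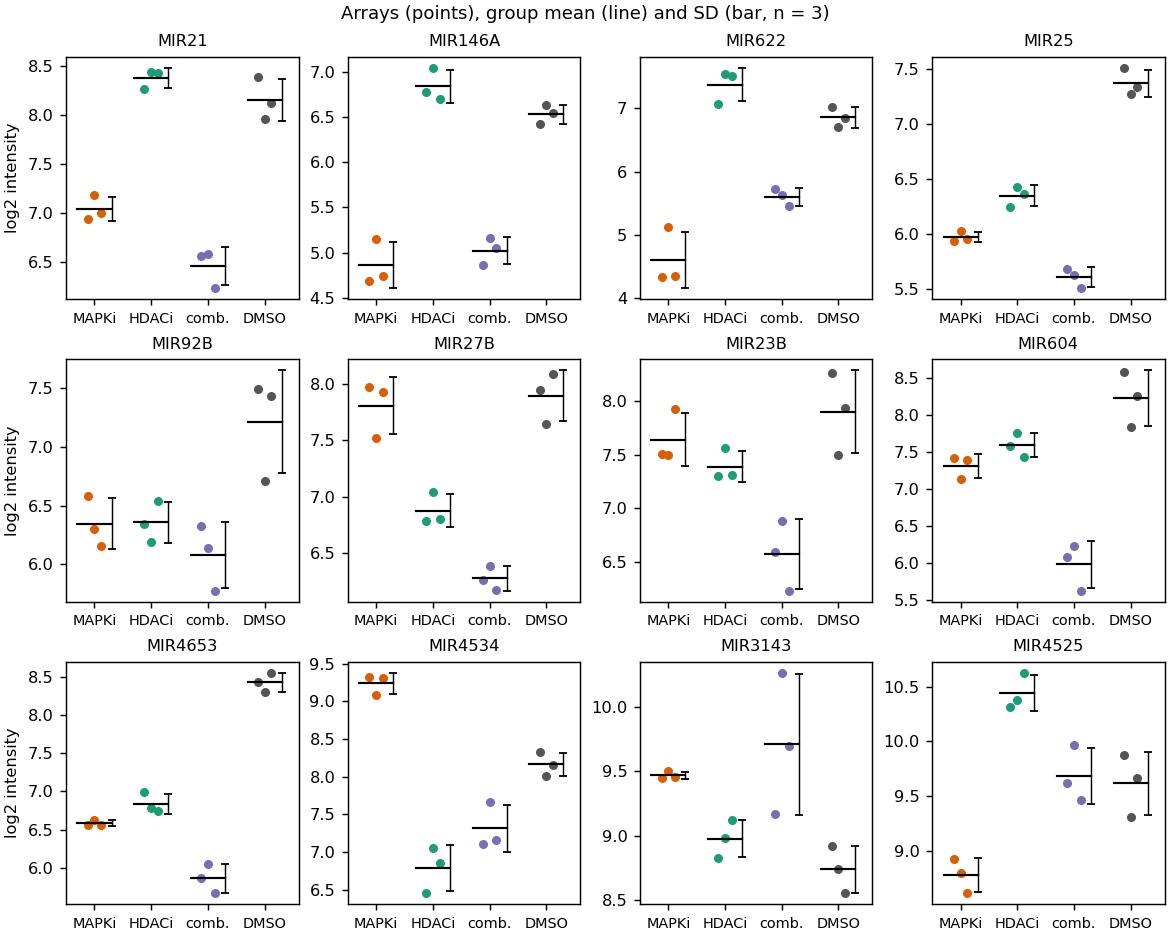
Log2 intensity (y axis) of 12 members on each of the 12 arrays, by group from left to right (MAPKi, HDACi, combination, DMSO), with points for arrays, a line for the mean and a bar for the SD of 3 arrays. MIR21, MIR146A and MIR622 are low in the groups given MAPK pathway inhibitors, MIR27B is low in the groups given entinostat, and MIR4534 is high in MAPKi and low in HDACi.

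With HDACi, fewer members were called, with MIR4653, MIR4534, MIR3192, MIR579, MIR3198-1, MIR760, MIR25 and MIR27B the largest falls without overlap of the arrays, and MIR4525 the largest rise. Of the 200 members, 74 were lower, 6 higher and 120 did not pass, beside 37.2 percent of all genes lower and 10.4 percent higher, 47.5 percent in either direction. The members' median was -0.35, against -0.20 over all genes. After quantile normalization 22 were lower and 15 higher, beside 21.4 and 18.2 percent of all genes (39.6 percent in either direction). The count of calls depended on DMSO replicate 1, the brightest DMSO array: 80 members passed with it and 41 without it. The share of all genes called without it is not given here, so nothing particular to the members is read from this drop.

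MIR4525, which lies within RAB40B, read 8.93, 8.80 and 8.61 in MAPKi, 10.32, 10.38 and 10.63 in HDACi, 9.62, 9.97 and 9.46 in the combination, and 9.88, 9.31 and 9.66 in DMSO. The HDACi arrays were the highest and the MAPKi arrays the lowest, with the combination overlapping DMSO. The rise with HDACi was 0.83 ± 0.16 (1.77-fold, adjusted p = 0.00037), and 1.23 after quantile normalization. It passed in each fit without 1 array. The other 5 members called higher with HDACi were MIR622 (0.52 ± 0.18), MIR152 (0.46 ± 0.17), MIR3619 (0.45 ± 0.15), MIR378D2 (0.42 ± 0.15) and MIR424 (0.38 ± 0.11), with limma adjusted p-values of 0.011 to 0.034. None of these 5 passed in every fit without 1 array. MIR424 did not pass without DMSO replicate 2 (0.27), and MIR622 did not pass without DMSO replicate 2 (0.44) or 3 (0.51) or without HDACi replicate 2 (0.43) or 3 (0.45). MIR378D2 did not pass without DMSO replicate 3 (0.29) or without HDACi replicate 1 (0.36) or 2 (0.43), and MIR152 did not pass without DMSO replicate 1 (0.50), 2 (0.45) or 3 (0.42) or without HDACi replicate 2 (0.27) or 3 (0.48). MIR3619, named for the small count after its values were seen, did not pass without DMSO replicate 2 (0.39) or 3 (0.36) or without HDACi replicate 2 (0.39) or 3 (0.41).

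MIR27B and MIR23B belong to the miR-23b/27b/24-1 cluster in an intron of AOPEP, an aminopeptidase gene. MIR27B read 7.97, 7.52 and 7.93 in MAPKi, 6.78, 7.04 and 6.80 in HDACi, 6.27, 6.39 and 6.18 in the combination, and 7.94, 7.64 and 8.09 in DMSO. All 6 arrays with entinostat lay below all 6 without it, and MAPKi overlapped DMSO. MIR27B was 2.02-fold lower with HDACi (-1.01 ± 0.14, adjusted p = 1.9e-05, and -0.61 after quantile normalization). With MAPKi it was at -0.09 on the deposited scale (adjusted p = 0.6) and higher after quantile normalization (0.68, adjusted p = 0.0016). MIR23B read 7.51, 7.50 and 7.93 in MAPKi, 7.30, 7.56 and 7.31 in HDACi, 6.59, 6.88 and 6.23 in the combination, and 8.27, 7.50 and 7.94 in DMSO. On the deposited scale, only the combination arrays of MIR23B stood apart from the other groups. With HDACi MIR23B was called lower despite overlapping arrays (-0.51 ± 0.19, limma adjusted p = 0.037), and did not pass after quantile normalization (-0.12). Its difference between the combination and HDACi did not pass after quantile normalization either.

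MIR579, in an intron of the RNA-binding protein gene ZFR, averaged 6.58 ± 0.17 in MAPKi, 5.78 ± 0.22 in HDACi, 5.35 ± 0.25 in the combination and 7.07 ± 0.24 in DMSO (SD, n = 3). Its fall with HDACi was -1.29 ± 0.16 (adjusted p = 4.8e-06), and -0.99 after quantile normalization. MIR3192 fell by 1.35 ± 0.18 (adjusted p = 1.5e-05) and MIR3198-1 by 1.25 ± 0.18 (adjusted p = 3e-05). MIR4653, MIR760 and MIR25, which fell with MAPKi, also had HDACi differences of -1.59 ± 0.12, -1.25 ± 0.13 and -1.02 ± 0.10, with adjusted p-values of 3.5e-08, 1.2e-06 and 7.4e-07. Both comparisons use the same DMSO arrays.

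With the combination, nearly every bright microRNA gene was lower than in DMSO, with MIR4653, MIR604, MIR3916, MIR25, MIR3182, MIR579, MIR760 and MIR21 the largest falls, and MIR3143 alone was higher. Of the 200 members, 194 were lower, 1 higher and 5 did not pass, beside 74.3 percent of all genes lower and 4.38 percent higher, 78.6 percent in either direction. The 5 that did not pass were MIR4525, MIR4519, MIR378D2, MIR424 and MIR152. The median difference was -0.92 among the members and -0.72 over all genes. After quantile normalization 36 were lower and 27 higher, beside 25.6 and 21.0 percent of all genes (46.6 percent in either direction), and the median was 0.00. Of the 194, 36 were lower on both scales and 22 turned to higher after quantile normalization. The largest of these turns were MIR3160-1, with -0.54 deposited and 0.72 quantile normalized, MIR1250, MIR4454 and MIR2909.

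**Figure D3:**
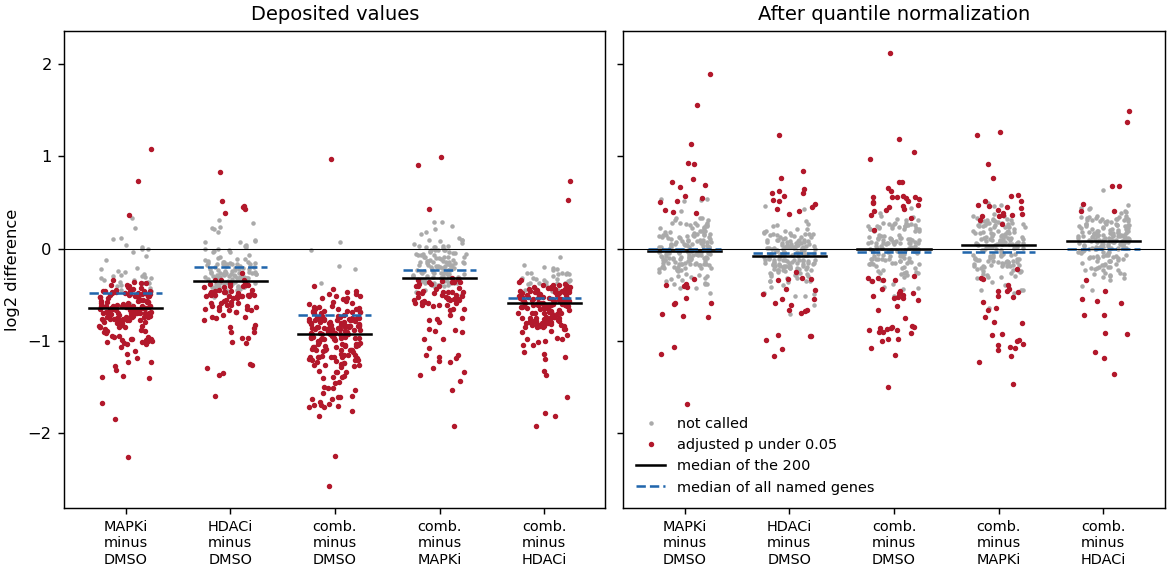
Log2 differences of the 200 members (points) in 5 comparisons, on the deposited scale and after quantile normalization. The black line is the members' median and the dashed blue line the median of all named genes: on the deposited scale the members' medians run from -0.92 to -0.32, and after quantile normalization they lie between -0.08 and 0.09.

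MIR604, in an intron of SVIL, the supervillin gene, read 7.42, 7.13 and 7.40 in MAPKi, 7.59, 7.75 and 7.43 in HDACi, 6.08, 6.23 and 5.63 in the combination, and 8.59, 7.83 and 8.26 in DMSO. The combination arrays lay below every other array. Against DMSO MIR604 was 4.74-fold lower in the combination (-2.24 ± 0.18, adjusted p = 8.7e-09, and -1.15 after quantile normalization). MIR4653 was 5.93-fold lower (-2.57 ± 0.12, adjusted p = 2.6e-11, and -1.50 after quantile normalization), the largest fall of any member in any of the comparisons against DMSO.

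MIR3916 read 7.58, 7.73 and 7.34 in MAPKi, 7.11, 7.79 and 7.46 in HDACi, 6.28, 6.30 and 6.19 in the combination, and 8.16, 7.94 and 8.09 in DMSO. The combination arrays were tight and lowest, and the single treatments overlapped each other. The combination difference was -1.81 ± 0.15 (3.50-fold lower, adjusted p = 1.1e-08, and -0.66 after quantile normalization). MIR21 was 3.24-fold lower than in DMSO (-1.70 ± 0.13, adjusted p = 5.1e-09, and -0.51 after quantile normalization), and MIR25 3.39-fold lower (-1.76 ± 0.10, adjusted p = 2.5e-10, and -0.84). MIR760 (-1.70 ± 0.13), MIR579 (-1.71 ± 0.16) and MIR3182 (-1.71 ± 0.21) had adjusted p-values of 5.5e-09, 3.9e-08 and 1.5e-06. MIR3143 was 1.96-fold higher (0.97 ± 0.19, adjusted p = 0.00026, and 2.12 after quantile normalization).

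Adding entinostat to the MAPK pathway inhibitors is a comparison whose differences use no DMSO array, and so none of the arrays that chose the members. Its SEs and p-values rest on a spread pooled over all 12 arrays, DMSO included. In this comparison MIR4534, MIR27B, MIR548H2, MIR2276, MIR604, MIR3916, MIR579 and MIR635 fell most and MIR622 and MIR4525 rose. Of the 200 members, 72 were lower and 3 higher in the combination than in MAPKi and 125 did not pass, beside 40.6 percent of all genes lower and 8.68 percent higher, 49.3 percent in either direction. The members' median was -0.32, against -0.23 over all genes, and 0.04 after quantile normalization, where 28 members were lower and 21 higher beside 24.0 and 19.6 percent of all genes (43.6 percent in either direction). All 28 were also lower on the deposited scale. The count of 75 calls was 47 without MAPKi replicate 1, 48 without combination replicate 3 and 114 without combination replicate 2, the brightest combination array. Shares of all genes called in those fits are not given here, so nothing particular to the members is read from these swings.

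MIR4534 was 3.79-fold lower in the combination than in MAPKi (-1.92 ± 0.16, adjusted p = 1.7e-07, and -1.46 after quantile normalization). Its combination arrays, at 7.11 to 7.67, did not reach its MAPKi arrays, at 9.08 to 9.33. Against DMSO the same combination arrays were lower on the deposited scale (-0.85 ± 0.16, adjusted p = 0.00019) and higher after quantile normalization (0.43, adjusted p = 0.031), so that direction depends on the scaling. MIR27B was 2.88-fold lower than in MAPKi (-1.53 ± 0.14, adjusted p = 3.5e-07, and -1.17 after quantile normalization), and MIR23B 2.11-fold lower (-1.08 ± 0.19, adjusted p = 0.00019, and -0.66). MIR604 (-1.33 ± 0.18), MIR3916 (-1.30 ± 0.15), MIR579 (-1.23 ± 0.16) and MIR635 (-1.22 ± 0.14) each fell, with adjusted p-values of 2.7e-06 to 1.4e-05, and were at -1.10 to -0.94 after quantile normalization. MIR548H2 and MIR2276, at -1.43 ± 0.25 and -1.37 ± 0.24, had wider spreads between arrays.

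MIR622 was 1.99-fold higher in the combination than in MAPKi (0.99 ± 0.18, adjusted p = 0.00028, and 1.26 after quantile normalization), and its combination arrays, at 5.45 to 5.72, stayed below the DMSO arrays, at 6.70 to 7.03. MIR4525 was 1.87-fold higher (0.91 ± 0.16, adjusted p = 0.00015, and 1.23 after quantile normalization). MIR146A, which also fell with MAPKi, averaged 5.02 ± 0.15 in the combination and 4.86 ± 0.26 in MAPKi (SD, n = 3), a difference of 0.16 ± 0.14 that did not pass (adjusted p = 0.36). MIR4519 was the remaining member called higher, with overlapping arrays, and is named after its values were seen (0.43 ± 0.16, adjusted p = 0.032). It did not pass without MAPKi replicate 2 (0.38) or 3 (0.30) or without combination replicate 1 (0.45) or 2 (0.30).

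Adding the MAPK pathway inhibitors to entinostat also gives differences that use no DMSO array, with SEs and p-values from the same pooled spread. MIR21, MIR146A, MIR622, MIR604, MIR635, MIR4522, MIR3916 and MIR3619 fell most, and MIR3143 and MIR4534 rose. Of the 200 members, 165 were lower and 2 higher in the combination than in HDACi, and 33 did not pass, beside 72.6 percent of all genes lower and 0.644 percent higher, 73.3 percent in either direction. The median was -0.59, against -0.54 over all genes. After quantile normalization 12 members were lower and 7 higher, beside 12.5 and 10.5 percent of all genes (23.0 percent in either direction), with a median of 0.09. All 12 were also lower on the deposited scale and passed there in every fit without 1 array. MIR4481 and MIR98, at -0.47 and -0.34 on the deposited scale, were lower there and higher after quantile normalization, both at 0.41.

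MIR21 had the largest fall among the members, 3.79-fold (-1.92 ± 0.13, adjusted p = 1.3e-08), and was lower after quantile normalization too (-1.12, adjusted p = 1e-05). MIR146A was 3.51-fold lower (-1.81 ± 0.14, adjusted p = 3.4e-08, and -1.36 after quantile normalization) and MIR622 3.42-fold lower (-1.77 ± 0.18, adjusted p = 6.2e-07, and -1.19). For all 3, the lower groups were those given dabrafenib and trametinib, whether entinostat was present or not. MIR604 (-1.61 ± 0.18), MIR635 (-1.37 ± 0.14), MIR4522 (-1.33 ± 0.17) and MIR3916 (-1.20 ± 0.15) fell on both scales. MIR3619, in the locus of the let-7a-3 and let-7b host transcript, fell by 1.18 ± 0.15 (adjusted p = 4.3e-06) on the deposited scale, and its difference after quantile normalization did not pass (-0.28, adjusted p = 0.1).

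MIR3143 was 1.66-fold higher than in HDACi (0.73 ± 0.19, adjusted p = 0.0032, and 1.49 after quantile normalization), and the difference was 0.46 without combination replicate 2. MIR4534 was 1.44-fold higher (0.52 ± 0.16, adjusted p = 0.0095, and 1.37 after quantile normalization). On the deposited scale its difference no longer passed without HDACi replicate 1 (0.36) or without combination replicate 2 (0.35).

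Whether the drugs together did more or less than the sum of each alone was tested as the interaction, which is the difference of combination minus MAPKi from HDACi minus DMSO. DMSO values enter this term with a positive sign and also chose the members, so the counts are a description. Of the 200 members, 3 were above and 3 below the sum, and 194 did not pass, beside 3.16 and 4.84 percent of all genes, 8.0 percent in either direction. After quantile normalization 5 were above and 4 below, beside 6.17 and 6.36 percent of all genes. MIR635, MIR21 and MIR378D2 were lower in the combination than the sum of the single treatments. MIR760, MIR4653 and MIR25 were higher than that sum. For MIR635 the single differences were -0.37 with MAPKi and -0.22 with HDACi, a sum of -0.60, and the combination difference was -1.59, so the interaction was -0.99 ± 0.20 (adjusted p = 0.005). For MIR21 the sum was -0.89 and the combination -1.70, an interaction of -0.81 ± 0.18 (adjusted p = 0.011). MIR4653 fell by 3.44 in the sum and by 2.57 in the combination, an interaction of 0.87 ± 0.16 (adjusted p = 0.0029), and MIR25 by 2.41 and 1.76 (0.65 ± 0.14, adjusted p = 0.0088). MIR760 had an interaction of 0.93 ± 0.19 (adjusted p = 0.0047). These 5 also passed after quantile normalization, and MIR378D2 (-0.81 ± 0.22, adjusted p = 0.029) did not (-0.60, adjusted p = 0.063).

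Members that share a seed were compared within their families. MIR21 and MIR590 share the miR-21 seed but not a locus, since MIR590 lies in an intron of the translation factor gene EIF4H. MIR590 read 6.52, 6.69 and 6.86 in MAPKi, 6.97, 6.49 and 6.75 in HDACi, 5.90, 5.93 and 5.84 in the combination, and 7.24, 7.04 and 6.96 in DMSO. Its combination arrays lay below every other array, and both genes were lower in the combination than in MAPKi: -0.80 ± 0.13 for MIR590 (adjusted p = 8.3e-05, and -0.51 after quantile normalization) and -0.58 ± 0.13 for MIR21 (adjusted p = 0.0013, and -0.18 after quantile normalization, which did not pass). MIR92B shares its seed with MIR25 and averaged 6.34 ± 0.22 in MAPKi, 6.36 ± 0.17 in HDACi, 6.08 ± 0.28 in the combination and 7.22 ± 0.44 in DMSO (SD, n = 3). Both were lower in each treated group than in DMSO on the deposited scale, and after quantile normalization MIR92B passed only with HDACi (-0.54, adjusted p = 0.026).

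The let-7 seed family, whose microRNAs restrain RAS and MYC, had 5 members here, and all 5 were lower in the combination than in DMSO, as were 194 of the 200 members and 74.3 percent of all genes. The differences were -1.63 ± 0.14 for MIR4458, -1.15 for MIRLET7A3, -0.93 for MIRLET7D, -0.66 for MIRLET7E and -0.63 for MIR98, with adjusted p-values of 2.9e-08 to 0.001. After quantile normalization MIR4458 (-0.86) and MIRLET7A3 (-0.50) remained lower, MIRLET7D and MIRLET7E did not pass, and MIR98 was higher (0.41). Family members differed in direction once the arrays were given the same distribution. MIR4458 read 6.09, 5.90 and 5.65 in MAPKi, 6.05, 6.43 and 6.46 in HDACi, 5.05, 5.51 and 5.25 in the combination, and 6.91, 6.85 and 6.94 in DMSO, with all treated arrays below DMSO. MIR3125 and MIR3916 share a seed and differed in pattern. MIR3125 averaged 6.46 ± 0.21 in MAPKi and 6.49 ± 0.24 in the combination, against 7.26 ± 0.22 in HDACi and 7.77 ± 0.19 in DMSO, whereas MIR3916 was lowest in the combination only.

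Of the microRNA groups listed for this tissue and these drugs, most genes were too dim to be members. Among the miR-23/27/24 clusters 6 genes were measured, of which MIR23B, MIR27B and MIR24-2 are members. Of the 6, 2 were lower with MAPKi, 2 with HDACi and 5 with the combination against DMSO, 5 were lower in the combination than in MAPKi, and 5 were lower than in HDACi. Over all genes the shares lower in these comparisons were 66.2, 37.2, 74.3, 40.6 and 72.6 percent, and nothing particular to any of these lists is read from its counts. After quantile normalization none of the 6 was lower with MAPKi, 1 with HDACi, 2 with the combination against DMSO, 4 in the combination against MAPKi and 0 against HDACi. There 1 gene was higher with MAPKi, 1 with HDACi and 1 in the combination against MAPKi. MIR24-2, in the other copy of the cluster, averaged 6.62 ± 0.20 in MAPKi, 7.57 ± 0.16 in HDACi, 6.60 ± 0.14 in the combination and 7.50 ± 0.19 in DMSO (SD, n = 3). It was lower with MAPKi on the deposited scale (-0.88, adjusted p = 3e-05) and did not pass after quantile normalization (-0.18, adjusted p = 0.19). With HDACi its difference was 0.07 as deposited, which did not pass, and 0.41 after quantile normalization, which did (adjusted p = 0.0037). The tumour-promoting group had 15 measured genes with MIR21, MIR149, MIR146A and MIR210 as members, and 6 were lower with MAPKi, 9 with the combination against DMSO and 10 in the combination against HDACi, beside those shares of 66.2, 74.3 and 72.6 percent. After quantile normalization 4, 5 and 5 were lower in these comparisons. The let-7 group had 11 measured genes, 7 of them lower with MAPKi, 3 with HDACi and 8 with the combination, beside 66.2, 37.2 and 74.3 percent of all genes. After quantile normalization 1 was lower and 1 higher with MAPKi, 3 lower with HDACi, and 4 lower and 2 higher with the combination. Of 17 measured melanocyte-linked microRNA genes, 1 was a member, MIR513A2, and of 5 measured miR-200 family genes, which mark epithelial cells, none was a member and none was called in these comparisons on the deposited scale.

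Messenger RNAs of the microRNA processing machinery were mostly lower in the treated groups on the deposited scale. Of 21 genes listed 11 were measured, and 11 were lower with MAPKi, 9 with HDACi and 11 with the combination, with medians of -0.60, -0.58 and -1.18. Over all genes 66.2, 37.2 and 74.3 percent were lower, with medians of -0.48, -0.20 and -0.72. After quantile normalization 4 were lower and 4 higher with MAPKi, 7 lower and 1 higher with HDACi, and 7 lower and 1 higher with the combination. DGCR8, the partner of DROSHA, averaged 6.09 ± 0.14 in MAPKi, 5.98 ± 0.15 in HDACi, 5.07 ± 0.22 in the combination and 7.26 ± 0.09 in DMSO (SD, n = 3), and its combination difference was -2.19 ± 0.13 (adjusted p = 2.2e-10, and -1.40 after quantile normalization). XPO5 differed by -1.75 ± 0.11 in the combination (adjusted p = 3.9e-10, and -0.47 after quantile normalization). LIN28B, which blocks let-7 maturation, differed by -1.29 ± 0.15 with MAPKi, -0.80 ± 0.15 with HDACi and -1.47 ± 0.15 with the combination. These LIN28B values are given on the deposited scale only. TNRC6B, an Argonaute partner, was lower with MAPKi on the deposited scale (-0.28 ± 0.11) and higher after quantile normalization (0.54). The part of these genes in the members' values was not tested.

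Many members lie inside another gene. Of the 200, 112 (56.0 percent) overlap an annotated gene on the same strand, against 367 of the other 820 (44.8 percent), which is a description of the annotation (RefSeq, GRCh38.p14). These shares count genes that could not be classed: 29 members and 148 others had no hairpin among the RefSeq sequences used here, so their overlap is not known. A further 23 and 84 overlap a gene of unknown strand. A measured host on the same strand was available for 64 members in 58 hosts. Across these 64 pairs, host and microRNA gene differences correlated at r = 0.47 (MAPKi), 0.41 (HDACi) and 0.42 (combination) against DMSO, and at 0.38 and 0.57 for the combination against MAPKi and against HDACi. The values after quantile normalization were 0.49, 0.40, 0.41, 0.35 and 0.60. The pairs share arrays, and some share a host, so no test is given. Host and microRNA gene were both lower in 43 pairs with MAPKi, 21 with HDACi and 61 with the combination against DMSO, while the hosts were lower in 50, 44 and 62 pairs and the microRNA genes in 51, 25 and 63. With 66.2, 37.2 and 74.3 percent of all genes lower, nothing is read from these joint counts. The only pair called in opposite directions was MIR4519 and BCL7C in the combination against MAPKi.

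MCM7, the host of MIR25 and MIR106B, read 7.47, 7.46 and 7.30 in MAPKi, 8.14, 8.24 and 8.35 in HDACi, 6.99, 7.02 and 6.99 in the combination, and 9.93, 9.48 and 10.08 in DMSO. Its groups had the same order as those of MIR25, with an interaction of 1.18 ± 0.19 (adjusted p = 0.00082). VMP1, the host of MIR21, differed from DMSO by -0.57 ± 0.10 with MAPKi, 0.04 ± 0.10 with HDACi and -1.16 ± 0.10 with the combination, and had an interaction of -0.62 ± 0.14 (adjusted p = 0.0085). After quantile normalization VMP1 with MAPKi was 0.11 (adjusted p = 0.29), while MIR21 was still lower. AOPEP, the host of MIR23B and MIR27B, differed by 0.04 ± 0.13 with MAPKi, -0.92 ± 0.13 with HDACi and -1.46 ± 0.13 with the combination, and was lower in the combination than in MAPKi (-1.50 ± 0.13, adjusted p = 1.7e-07). SVIL, the host of MIR604, differed by -2.16 ± 0.11 in the combination and TRIB2, the host of MIR3125, by -2.65 ± 0.11 with MAPKi. For MCM7, AOPEP, SVIL and TRIB2 only the deposited scale is given here. Each of these hosts, VMP1 included, was lower in the combination than in DMSO on the deposited scale, like its microRNA gene. How much of a microRNA probe set's signal came from the host transcript was not tested.

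**Figure D4:**
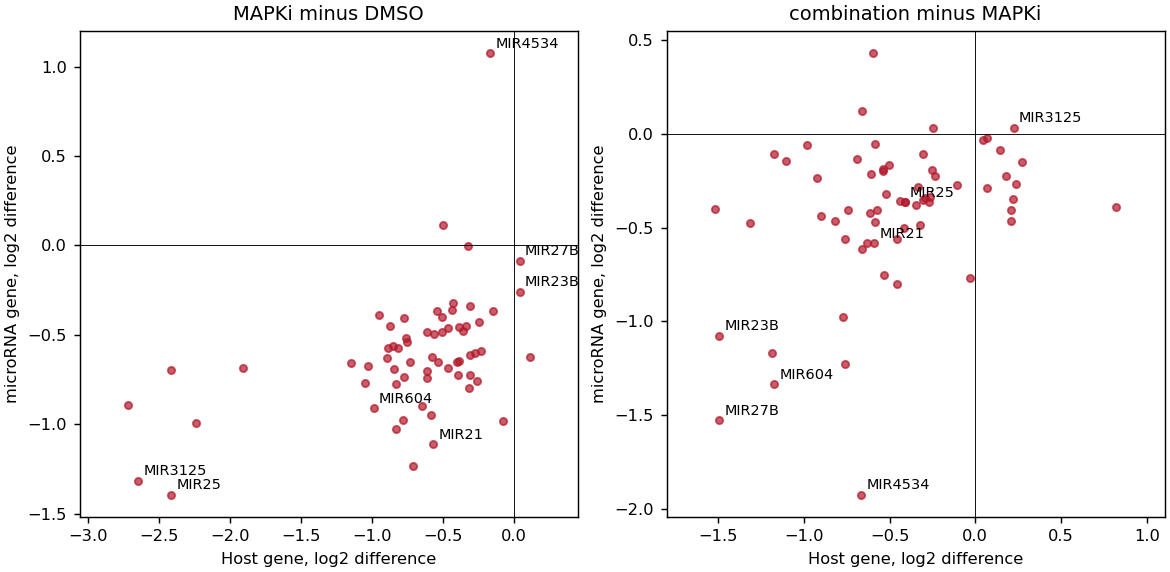
Log2 difference of the microRNA gene (y axis) against that of its same-strand host (x axis) for 64 pairs, in MAPKi minus DMSO and in combination minus MAPKi. The points run upward with r = 0.47 and 0.38, and MIR4534 is the highest point of the MAPKi panel, at 1.07, with its host at -0.17.

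Members also differed from dimmer microRNA genes in base composition. The hairpins of 171 members with a RefSeq hairpin had a median G and C content of 58.8 percent, against 45.5 percent in 672 other microRNA genes. Above 60 percent were 77 of the 171 (45.0 percent), against 52 of the 672 (7.74 percent), while median hairpin length was 82 and 83 bases. Over the 843 genes, G and C content correlated with DMSO level at r = 0.60, and at 0.13 among the members alone. The points share arrays and the array's probe design, and brightness chose the members, so these are descriptions. Within the members, G and C content correlated with the difference at r = -0.25 (MAPKi), 0.07 (HDACi) and 0.11 (combination) against DMSO, and at 0.35 for the combination against MAPKi. The part of base composition in the brightness was not tested.

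**Figure D5:**
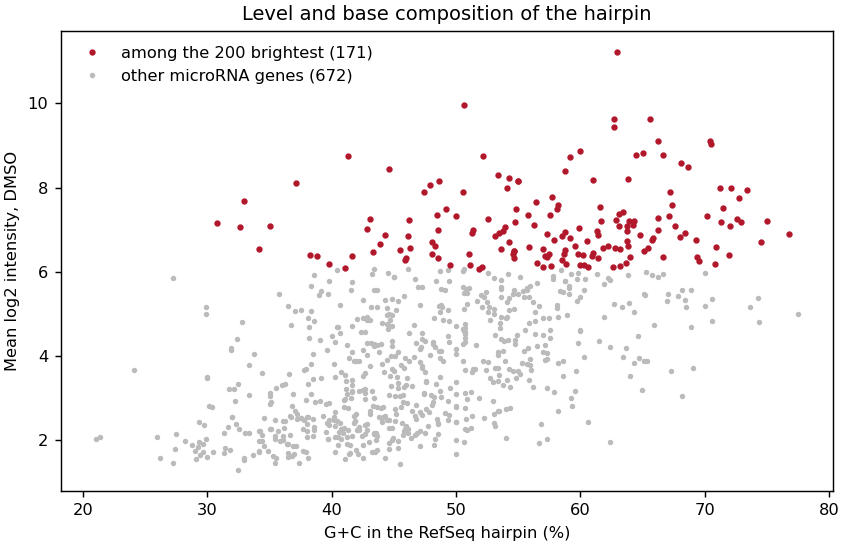
Mean log2 intensity over the 3 DMSO arrays (y axis) against hairpin G and C content in percent (x axis) for 171 members and 672 other microRNA genes. Bright genes are found mostly above 50 percent, and the correlation is 0.60 over all 843 genes.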

How the data were processed

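RNA of 12 samples was hybridised to single-colour Affymetrix arrays. The deposited values are linear intensity per probe set, which the authors computed by RMA (Transcriptome Analysis Console), per the submitters' processing notes. The sources used here give no versions and do not say how arrays were scaled or whether the ERCC spike-in added before extraction was used for it. Each of 29592 rows was put on the log2 scale. A probe table named 14783 rows with 1 symbol, 0 with several and 14809 with none, giving 14599 genes, of which all were found in RefSeq. Members, lists and tests were chosen with earlier results of these data known.

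Differences were fitted with limma 3.58.1 in R 4.3.3 to all 12 arrays, with group means (8 residual and 7.68 prior degrees of freedom). p-values were adjusted by Benjamini-Hochberg over 14599 genes. The fit was tested on simulated data. Folds are given as sizes. Genes named were the 10 brightest, those at the threshold, in each comparison the 8 members that rose and the 8 that fell furthest among those called without overlap of arrays, members of lists, shared seeds and shared hosts, the hosts, the 4 largest turns after quantile normalization, and processing genes. Alternatives were another scaling, filters, variance settings, other choices of members, a replicate block and leaving out each array. Figures used matplotlib 3.10.9.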

Additional observations from a re-analysis of the deposited data

Results flagged for a closer look

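The response to the MAPK pathway inhibitors differed with and without entinostat for 6 members, by the interaction term of the fit over all genes (limma, Benjamini-Hochberg), which is combination minus HDACi less MAPKi minus DMSO. These are 3 percent of the 200 members, beside 8.0 percent of all 14599 genes, so nothing particular to the members is read from the count. The term uses the DMSO arrays that chose the members. The fall was larger with entinostat for MIR635 (-0.99, from -1.37 with and -0.37 without) and for MIR21 (-0.81, from -1.92 with and -1.11 without). MIR378D2 (-0.81) differed by -0.45 with entinostat and by 0.36 without it. The fall was smaller with entinostat for MIR25 (0.65, from -0.74 with and -1.39 without), MIR4653 (0.87, from -0.98 with and -1.85 without) and MIR760 (0.93, from -0.45 with and -1.38 without). Of these, MIR378D2 did not pass after quantile normalization. No explanation for any of them was tested.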

How the results depend on the processing

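The number of members called depended on the scaling. With array medians subtracted, 60 were called for MAPKi against DMSO (166 as reported), 110 for the combination against DMSO (195) and 36 for the combination against HDACi (167). These were 30, 55 and 18 percent of the members, beside 46.9, 66.0 and 42.6 percent of all genes. As deposited the shares were 83.0, 97.5 and 83.5 percent of the members, beside 69.1, 78.6 and 73.3 percent of all genes. Whether members were called more or less often than all genes in these comparisons thus depended on the scaling. After quantile normalization the counts against DMSO were 31 (MAPKi), 37 (HDACi, 80 as reported) and 63 (combination), and the combination had 49 against MAPKi (75) and 19 against HDACi. On that scale 28.9, 39.6, 46.6, 43.6 and 23.0 percent of all genes were called in these comparisons. There the members' median turned to 0.0411 against MAPKi (-0.32) and 0.0862 against HDACi (-0.59). A set of 36 members had a RefSeq hairpin and no overlapping gene on the same or an unknown strand. Of these, 35, 18 and 36 were called with MAPKi, HDACi and the combination against DMSO, beside 69.1, 47.5 and 78.6 percent of all genes. For the combination against MAPKi and HDACi 10 and 32 were called, and 1 for the interaction (6), counts lowered by the smaller set. With members ranked on DMSO array 1 alone and that array left out, 43 were called for HDACi, and without the dimmest 40% of genes 12 for the interaction; the cause was not tested. Leaving out 1 array gave 127 to 175 calls (MAPKi), 41 to 97 (HDACi) and 185 to 196 (combination) against DMSO, and for the combination 47 to 114 against MAPKi, 126 to 178 against HDACi and 5 to 9 for the interaction. The interaction median (0.02) was -0.110 to 0.128 without 1 array, -0.0787 with that ranking on DMSO array 1, and -0.00393 with members ranked on the 9 drug-treated arrays. The largest rises and falls named by rule were 58 changes of single genes, of which 51 passed in every alternative run. Of the 58, 2 missed the threshold after quantile normalization, 6 without 1 array, and 0 reversed. The 58 were picked for their size and leave out the changes named for turning after quantile normalization, so they do not describe the other members. In the combination against DMSO, 22 members turned from lower to higher. After group means were removed, arrays of the same replicate number correlated across genes at a median r of 0.0324 (other pairs -0.0111), and the lowest same-number value, -0.106, means that not every pair deviated together. The numbers were therefore not taken as pairing, although the best partner of 9 of 12 arrays had the same number, a hint from the data. The replicate block gave 175, 90 and 196 calls in the comparisons of MAPKi, HDACi and combination with DMSO, 78 and 171 for the combination against MAPKi and HDACi, and 7 for the interaction. Shares of all genes called are not given here for the block, the fits without 1 array or the fit without dim genes. Nothing particular to the members is therefore read from the counts in those fits. The dimmest members, at 6.08, lie below the 6.42 median of all genes, and 3 arrays per group limit what small differences can be called.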
